A study of Mus musculus with 23 samples.

Results

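The Vomeronasal type 1 receptor genes are the protein-coding genes whose RefSeq symbol is Vmn1r followed by a number. The RefSeq gene table of GRCm38.p6 held 231 genes of that pattern, of which 230 were protein-coding and 1 was a pseudogene, so 230 of 21887 protein-coding genes on chromosomes 1 to 19, X and Y were described. They were read against CUT&Tag peak lists from CD4+ naive T cells of mouse spleen and lymph nodes (labelled pLN). In CUT&Tag an antibody directs a transposase to cut and tag DNA beside its target. Mice were DDX55 knockout (DDX55 KO) or wild type (WT), where DDX55 is a DEAD-box RNA helicase. Antibodies against H3K9me3, RNA polymerase II and DDX55 were each used on 2 DDX55 KO and 2 WT samples. The S9.6 antibody, which binds DNA-RNA hybrids (R-loops), was used on 4 DDX55 KO and 4 WT samples, of which 2 per genotype received 20 U of RNase H. A further 2 WT samples with an HA-tag antibody and 1 WT sample with IgG complete the 23 samples. The labels used here do not say how the knockout was made, how old the mice were or whether replicates were separate animals.

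V1R receptors are G protein-coupled receptors of sensory neurons in the vomeronasal organ, where they detect pheromones and signal through Gnai2 and the channel Trpc2. A sensory neuron typically expresses a sole V1R gene and keeps the others silent. The genes lie in tandem clusters, and their coding sequence is typically a short uninterrupted exon. H3K9me3 is a histone mark of heterochromatin, and olfactory receptor genes carry it in olfactory neurons.

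The deposited values were 1 merged peak list per target, which holds positions only. Each list is shared by DDX55 KO and WT samples, and the R-loop list also by samples that did and did not receive RNase H. The lists give no height, no count and no value per sample, so depth was unknown. The lists therefore measure neither a difference between DDX55 KO and WT, nor the effect of RNase H, nor replicate error, and no p-value is given. On the assembled chromosomes the lists held 16474 H3K9me3, 1473 R-loop, 215 DDX55 and 10898 RNA polymerase II peaks. As a check of the label, 9 of 12 CD4 naive T cell marker genes, among them Cd4, Cd3e, Ccr7 and Lef1, had RNA polymerase II at most 3000 bp from their start or end, where 33.5% of all protein-coding genes had it. So did 0 of 7 vomeronasal sensory neuron markers, Omp and Trpc2 included, 1 of 6 B cell markers (Cd79a), 0 of 6 myeloid markers, 0 of 6 CD8 T and NK cell markers and 2 of 6 erythroid markers (Epor and Klf1), lists too short to tell from that share.

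H3K9me3 was the list with peaks at the most Vmn1r genes, and still at few of them. A peak was found within 3000 bp of a gene start or end, called a gene end here, for 16 of 230 Vmn1r genes (6.96%, exact Clopper-Pearson 95% interval 4.03 to 11.1), where 2.96% of all protein-coding genes had one. A peak lay inside the gene span at 5 of the 230 (2.17%, 0.710 to 5.00), where 5.40% of all protein-coding genes had one. R-loop peaks were at 0 ends and in 0 spans, beside 0.631% and 1.59% of all protein-coding genes. DDX55 peaks were also at 0 ends and in 0 spans, beside 0.256% and 0.324% of all protein-coding genes. A count of 0 among 230 allows a share of up to 1.59% by the same exact interval. The shares of all protein-coding genes with R-loop ends, DDX55 ends and DDX55 spans lie under that limit. A difference from them was therefore not detectable with 230 genes. The R-loop span share of 1.59% equals the limit as printed, so no shortfall can be read there either. It is also taken over genes with a median span of 17169 bp, beside 924 bp for Vmn1r genes. RNA polymerase II peaks were at the end and in the span of 1 gene, Vmn1r4 (0.435%), beside 33.5% and 32.2% of all protein-coding genes. Intervals cover counting error only, and neighbouring members of a cluster are not independent.

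**Figure D1:**
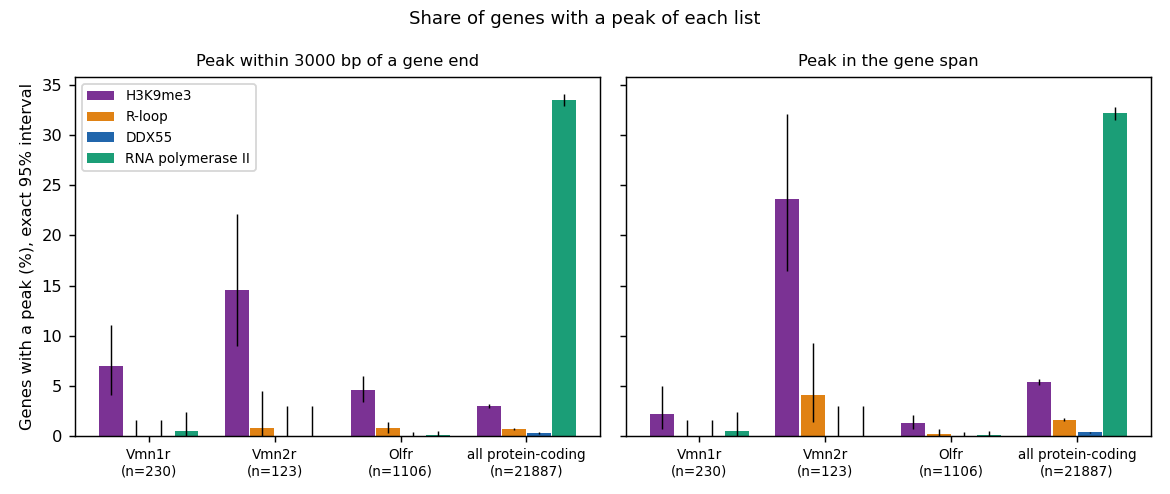
Bars give the percentage of genes with a peak of each list within 3000 bp of a gene end (left) and in the gene span (right) for Vmn1r, Vmn2r and Olfr genes and for all protein-coding genes, with exact 95% intervals. H3K9me3 reaches 6.96% of Vmn1r gene ends, and RNA polymerase II 0.435% against 33.5% of all protein-coding genes.

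Among other chemoreceptor families, H3K9me3 was at gene ends of 14.6% of the 123 Vmn2r genes, the second vomeronasal family, and of 4.52% of the 1106 Olfr genes. The interval of the Vmn1r share, 4.03 to 11.1%, overlapped those of Vmn2r (8.91 to 22.1%) and Olfr (3.37 to 5.92%), and these differences were not tested. In the gene span, Vmn1r genes had 2.17% with a peak, Vmn2r genes 23.6% and Olfr genes 1.27%. Span length differs: the median was 924 bp for Vmn1r, 24544 bp for Vmn2r and 950 bp for Olfr. Of the 187 Vmn1r genes under 1000 bp, 4 (2.14%) had a peak in the span and 14 (7.49%) at an end. All 1576 protein-coding genes of that length, which include them, had 0.952% and 4.25%. Taar genes, another olfactory receptor family, had 0 of 15 and the bitter taste Tas2r genes 3 of 35 with a gene-end peak.

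The DNA at the gene starts is shown for Vmn1r149 and Vmn1r151, since these were the Vmn1r genes whose start window met a peak of any list. RefSeq windows of 300 bases, running from 250 before to 50 after the annotated gene start, were given for 205 of the 230 genes. The start used for the window was that of the gene table for 197 of them. For the other 8, Vmn1r4 among them, it lay 163 to 32599 bp inside the gene span. At 87.8% of these windows the first letters after the start were ATG, compared with 9.55% over 17492 protein-coding windows. At 171 genes the window shared the start of the gene table, had ATG there and belonged to a gene whose length is a multiple of 3. The windows were poor in G and C, with a median of 36.0% against 56.3% over all protein-coding windows, and held a median of 1 CpG against 13. The 2 windows that met a peak are printed 5′ to 3′ on the gene strand, with the bases inside the H3K9me3 peak in capitals. Both lie on the minus strand of GRCm38.p6, at chr7:22438180-22438479 and chr7:22499629-22499928.
Vmn1r149: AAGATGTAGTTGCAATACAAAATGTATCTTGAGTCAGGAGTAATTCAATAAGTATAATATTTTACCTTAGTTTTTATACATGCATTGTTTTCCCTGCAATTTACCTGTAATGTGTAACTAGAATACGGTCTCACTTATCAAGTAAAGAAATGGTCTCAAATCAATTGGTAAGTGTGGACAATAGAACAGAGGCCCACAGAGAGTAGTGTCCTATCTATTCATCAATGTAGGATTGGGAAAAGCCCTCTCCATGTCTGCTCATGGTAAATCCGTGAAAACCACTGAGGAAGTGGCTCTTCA
Vmn1r151: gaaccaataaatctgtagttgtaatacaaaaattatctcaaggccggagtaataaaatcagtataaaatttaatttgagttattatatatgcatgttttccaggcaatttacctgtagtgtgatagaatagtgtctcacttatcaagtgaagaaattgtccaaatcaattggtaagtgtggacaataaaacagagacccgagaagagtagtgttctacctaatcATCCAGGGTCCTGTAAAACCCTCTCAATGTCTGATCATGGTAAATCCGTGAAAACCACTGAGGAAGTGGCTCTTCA
The peak of Vmn1r149 held all 300 bases and that of Vmn1r151 the last 76, from base 225 of the window. The windows differ by 59 edits (80.3% identity). Each has an exact copy elsewhere in the cluster: the window of Vmn1r149 is identical to that of Vmn1r101, 2.00 Mb away, and the window of Vmn1r151 to that of Vmn1r103, 1.99 Mb away. Neither copy met a peak. The nearest H3K9me3 peak was 10565 bp from Vmn1r101 and 50090 bp from Vmn1r103.

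Near-identical copies made up much of the family. The window was identical to that of another Vmn1r gene for 54 of 205 genes, which formed 21 groups of 2 to 6, and it was at least 95% identical for 83. Most of them belonged to the chromosome 7 cluster from Vmn1r91 to Vmn1r183, where 52 of 83 windows had an exact copy and 73 a copy of at least 95%. In the other large clusters with windows the median identity to the closest window ran between 53.5% and 89.3%. Of the 13 genes with an H3K9me3 peak at an end and a window, 7 had an exact copy. These 7 came from 7 groups of 20 genes in all, and 0 groups had every gene marked. The 13 unmarked genes of these groups lay 3703 to 102456 bp from the nearest peak (median 22368 bp). Reads from identical sequence cannot be placed by that sequence alone, and the handling of such reads was not given in the sources used here. Which copy carries a peak is therefore uncertain where the peak met the identical window, at Vmn1r149 and Vmn1r151. At the other marked genes of these groups the peak lay outside the window. Whether the sequence under those peaks is repeated was not examined. Without the 54 genes, 9 of 176 (5.11%) had a gene-end peak. These 176 still include the genes with no window, whose copies were not compared, among them the marked Vmn1r238, Vmn1r2 and Vmn1r88.

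**Figure D2:**
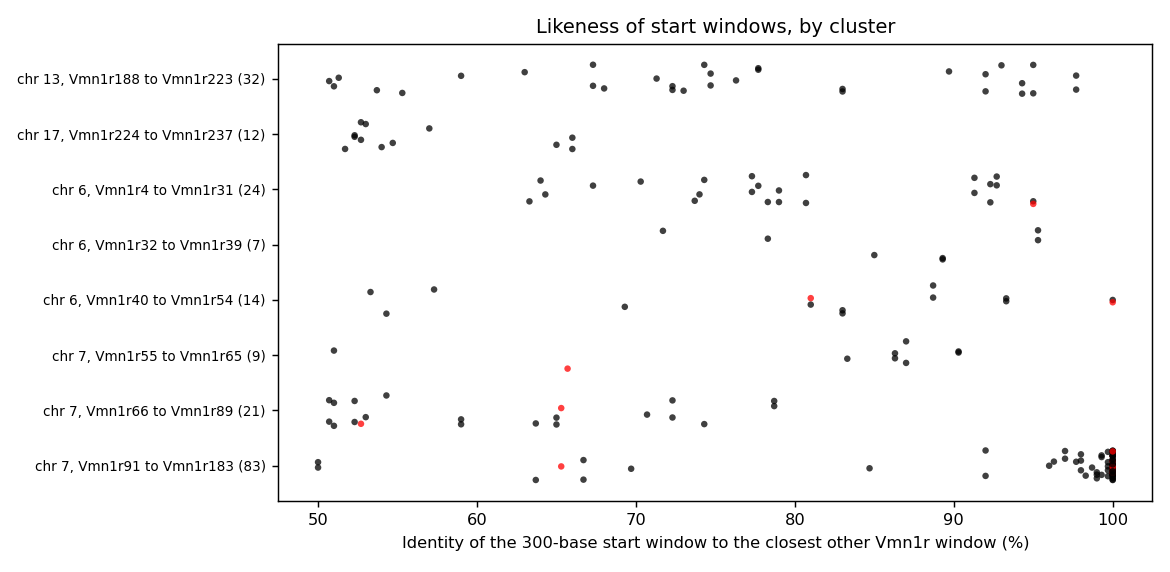
Each point is a Vmn1r gene in a cluster of 5 or more, placed by the identity (%) of its 300-base start window to the closest other Vmn1r window, with the number of windows in brackets. Red points had an H3K9me3 peak within 3000 bp of a gene end. In the Vmn1r91 to Vmn1r183 cluster 52 of 83 windows sit at 100%.

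The 230 genes occupied 14 places when members up to 1 Mb apart were joined. Of these, 8 were clusters of 5 or more genes that held 221 genes, and the other 9 genes lay alone or in pairs. An H3K9me3 peak lay at an end of a member in 7 of 14 places and in 5 of the 8 clusters. The 8 clusters spanned 12.2 Mb and held 260 H3K9me3 peaks, 21.3 per Mb, with 1.98% of their bases covered. Density was uneven, from 0 per Mb (Vmn1r32 to Vmn1r39) to 30.3 per Mb (Vmn1r91 to Vmn1r183). The chromosome 7 clusters that begin with Vmn1r66 and Vmn1r91 held 82 and 120 of the peaks. Over chromosomes 1 to 19, X and Y the density was 6.11 per Mb and the cover 0.494%, over 2694 Mb taken from the lowest to the highest gene or peak on each chromosome. Outside the clusters, chromosome 7 had 7.23 peaks per Mb, chromosome 6 had 5.88, chromosome 17 had 5.81 and chromosome 13 had 4.61. Of the 260 peaks, 5 touched the span of a Vmn1r gene, 11 more lay within 3000 bp of one, 18 lay in or within 3000 bp of another protein-coding gene and 226 lay farther from both.

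**Figure D3:**
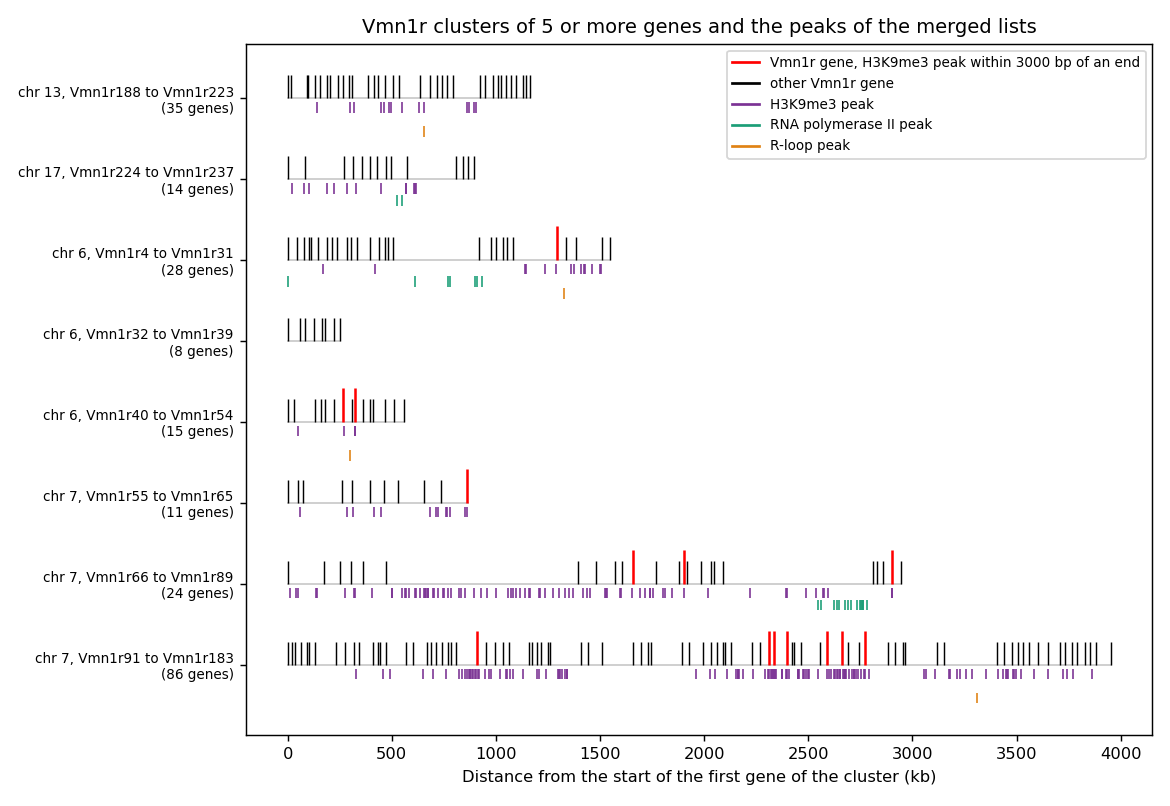
Each row is a Vmn1r cluster of 5 or more genes, drawn to scale in kb from its first gene. Ticks above the line are Vmn1r genes, red where an H3K9me3 peak lies within 3000 bp of an end, and ticks under it are peaks. The last row holds 120 H3K9me3 peaks and 7 red genes, and the Vmn1r32 to Vmn1r39 row holds 0 peaks.

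H3K9me3 cover was thus higher beyond 3000 bp from the genes than on them or closer to them. The cover was 0.708% of the bases inside Vmn1r spans, 0.405% from 1 to 1000 bp outside, 0.642% from 1001 to 3000 bp, and then 1.96% from 3001 to 10000 bp, 1.74% from 10001 to 30000 bp and 1.81% from 30001 to 100000 bp. Rings of neighbouring genes overlap, so a peak can count more than once. The first ring outside the gene was also lower than the rings beyond 10000 bp for Vmn2r genes (0.837%, then 2.35% and 1.72%) and for Olfr genes (0.110%, then 0.852% and 0.843%). It was lower too for the 1389 other protein-coding genes under 1000 bp (0.332%, then 0.708% and 0.694%). Those 1389 include the Olfr genes of that length, so they are not a separate comparison. The median distance from a Vmn1r gene to a peak was 27103 bp, compared with 11863 bp for Vmn2r, 46656 bp for Olfr, 81313 bp for the other short genes and 317716 bp for all protein-coding genes. A peak lay within 10000 bp of the span of 53 Vmn1r genes (23%, against 9.28% of all protein-coding genes) and within 100000 bp of 181 (78.7%, against 27.1%). Within 3000 bp of the span the Vmn1r share was close to that of all protein-coding genes, with 16 genes (6.96%) against 6.41%, and within 1000 bp it was lower, with 7 genes (3.04%) against 5.65%. All protein-coding genes have a median span of 17169 bp, and a peak anywhere in the span counts here. Beside genes of like length the Vmn1r shares were higher at both distances: Olfr genes had 4.70% within 3000 bp and 1.63% within 1000 bp. The other short genes, Olfr genes among them, had 3.82% and 1.37%. The exact interval of 16 of 230 genes, 4.03 to 11.1%, includes 4.70% but not 3.82%. These differences were not tested, and neighbouring members of a cluster are not independent.

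**Figure D4:**
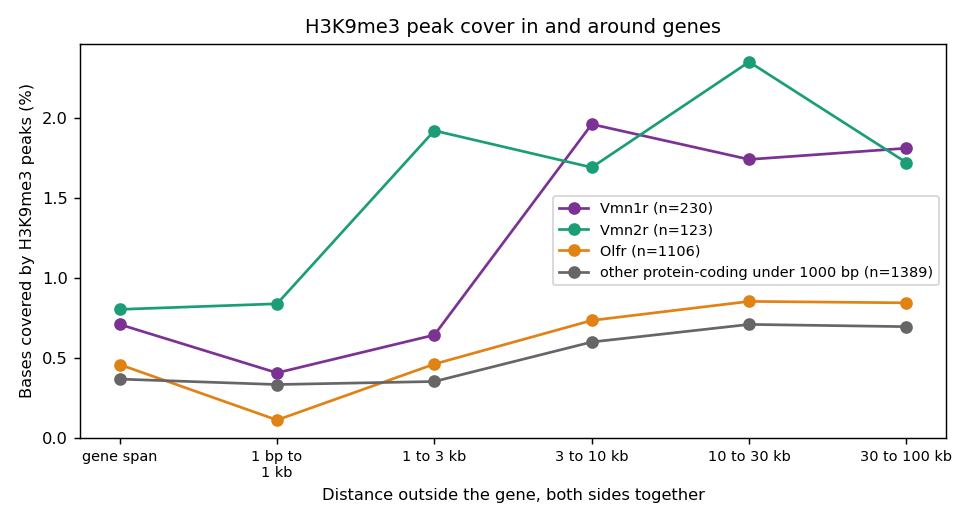
Points give the percentage of bases covered by H3K9me3 peaks inside genes and in rings outside them, both sides together. Shown are Vmn1r, Vmn2r, Olfr and other short protein-coding genes, the last with Olfr genes under 1000 bp included. For Vmn1r genes the cover is 0.405% in the first 1000 bp and 1.96% from 3 to 10 kb.

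The largest cluster, from Vmn1r91 to Vmn1r183 on chromosome 7 (20101158 to 24055691), held 86 genes in 3.95 Mb and 120 H3K9me3 peaks (30.3 per Mb, 2.97% of bases). Of its Vmn1r genes 7 had a gene-end peak and 4 a peak in the span. Of the 18 other protein-coding genes in the cluster, 6 had an H3K9me3 peak at an end, beside 2.96% of all protein-coding genes. The first gene, Vmn1r91, lay 69595 bp from a peak and the last, Vmn1r183, 26212 bp. The marked genes were uneven along the cluster: 6 of the 22 genes that start between 22 and 23 Mb were marked. In bins of 200 kb the count of H3K9me3 peaks ran to 19 and 18 from 22400001 to 22800000, while the bins from 21600001 to 22000000, with 6 genes, held 0. Leaving out the 22 genes leaves 10 of 208 Vmn1r genes marked (4.81%), so this block alone supplied 6 of the 16.

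Inside that block Vmn1r160 (chromosome 7, 22871224 to 22872147) had the most of its span covered, 89.9%, by a peak of 881 bp at 22871317 to 22872197. Vmn1r151 had 77.6% of its span in a peak of 738 bp at 22498967 to 22499704, and a further peak of 791 bp lay 2618 bp downstream. Vmn1r149 had the widest peak of the chromosome 7 genes at an end, 1413 bp at 22437853 to 22439265, which held 40.8% of the span and the whole start window printed above. In Vmn1r148, a V1RD gene by its older name V1rd14, a peak of 304 bp lay wholly within the 2439 bp span (12.5%). The peaks of Vmn1r257 (1035 bp) and Vmn1r157 (584 bp) lay 974 and 2673 bp downstream of the gene, and that of Vmn1r119 (486 bp), outside the block, 2808 bp upstream. No other protein-coding gene had an end within 3000 bp of any of these peaks.

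On chromosome 7 a pair of further clusters also had marked genes. The cluster from Vmn1r66 to Vmn1r89 (10273828 to 13220289) held 24 genes and 82 H3K9me3 peaks (27.8 per Mb). The marked genes were Vmn1r76, Vmn1r79 and Vmn1r88, with peaks of 791, 670 and 600 bp at 1574, 1008 and 2702 bp from the gene, none of them inside the span. Vmn1r66 lay 9476 bp and Vmn1r89 44322 bp from a peak. This cluster also holds 29 other protein-coding genes, of which 3 had an H3K9me3 peak at an end and 12 an RNA polymerase II peak there. Over all protein-coding genes these shares were 2.96% and 33.5%. Among the 12 was Trim28, which encodes a corepressor that recruits H3K9 methylation and had an RNA polymerase II peak of 1359 bp. The nearest Vmn1r gene to the 15 RNA polymerase II peaks of the cluster was Vmn1r85, 29543 to 265385 bp away. The cluster from Vmn1r55 to Vmn1r65 (5146490 to 6011010) held 11 genes and 13 H3K9me3 peaks. There Vmn1r65 had a peak of 865 bp only 327 bp downstream, whereas Vmn1r55 lay 58973 bp from one.

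Chromosome 6 carried 3 clusters that differed in H3K9me3. The cluster from Vmn1r4 to Vmn1r31 (56923914 to 58472878), mostly V1RC genes by their older names, held 28 genes and 14 peaks (9.04 per Mb). Of these Vmn1r27 was marked, by a peak of 554 bp at 2785 bp, while Vmn1r4 lay 135098 bp and Vmn1r31 40991 bp from a peak. The cluster from Vmn1r40 to Vmn1r54 (89711261 to 90270053), of V1RA and V1RB genes, held 15 genes and 4 peaks (7.16 per Mb). Of the 4 peaks, 3 lay at its 2 marked genes. Vmn1r48 had a peak of 544 bp over 50.6% of its span at 90035849 to 90036392 and another of 684 bp 2078 bp downstream, and Vmn1r46 had one of 715 bp at 2985 bp. The start window of Vmn1r48 is identical to that of Vmn1r47, which lay 10352 bp from a peak. Vmn1r40 and Vmn1r54 lay 47109 and 232714 bp from one. The cluster from Vmn1r32 to Vmn1r39 (66552183 to 66805332) held 8 genes and 0 peaks of any list. Its genes lay 605192 bp (Vmn1r39) to 850816 bp (Vmn1r32) from H3K9me3.

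The clusters of chromosomes 13 and 17 had no marked gene, although they held H3K9me3 peaks. On chromosome 13, Vmn1r188 to Vmn1r223 (22087878 to 23250323) comprised 35 genes and 14 peaks (12 per Mb), none of them within 3000 bp of a Vmn1r gene. The distance ran from 5261 to 255048 bp with a median of 60095 bp, with Vmn1r188 at 138616 bp and Vmn1r223 the farthest. The 20 V1RH and 9 V1RI genes all lie here. On chromosome 17, Vmn1r224 to Vmn1r237 (20419163 to 21314886) comprised 14 genes, V1RE and V1RF among them, and 13 peaks (14.5 per Mb). The distance there ran from 4292 to 277579 bp, with Vmn1r224 at 19673 bp and Vmn1r237 farthest. By older family name, gene-end peaks lay at 2 of 19 V1RD, 1 of 31 V1RC, 1 of 8 V1RA, 1 of 4 V1RB and 1 of 11 V1RG genes. They lay at 10 of the 103 genes for which the table gives no such name. The count was 0 of 20 V1RH, 0 of 13 V1RE, 0 of 9 V1RI and 0 of 5 V1RF genes, and 0 for the remaining names, held by at most 3 genes each. The share was 6.96% over all Vmn1r genes and 2.96% over all protein-coding genes, and differences between names were not tested.

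**Figure D5:**
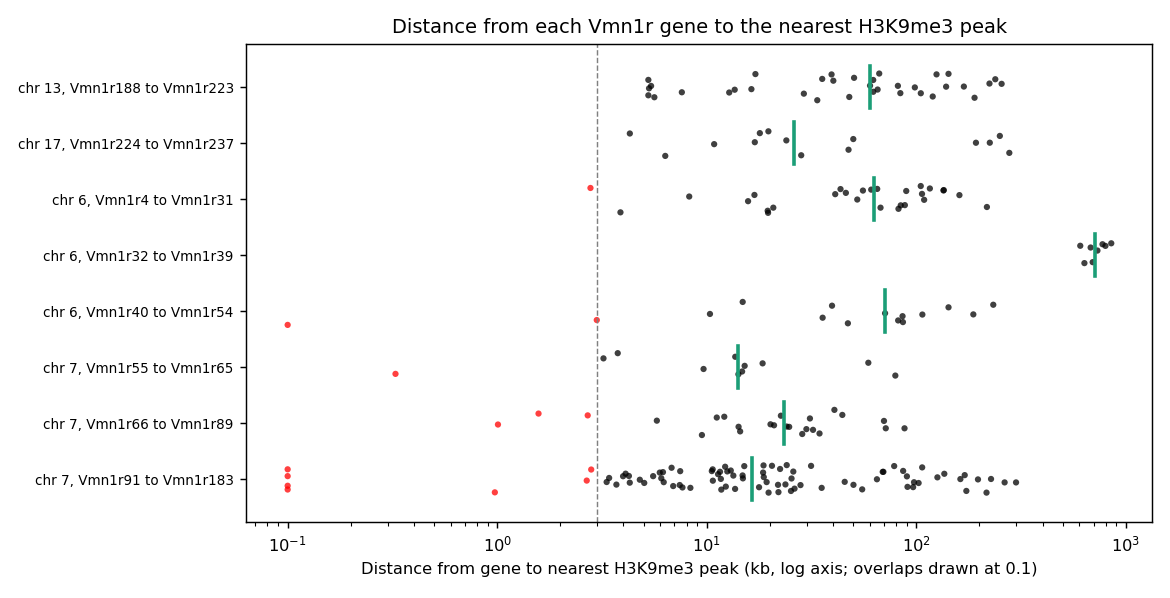
Each point is a Vmn1r gene in a cluster of 5 or more, placed by its distance to the nearest H3K9me3 peak (kb, log axis, overlaps drawn at 0.1), with green bars at cluster medians and a dashed line at 3 kb. Red genes had a peak within 3000 bp of an end. The cluster medians run from 14149 bp (Vmn1r55 to Vmn1r65) to 712237.5 bp (Vmn1r32 to Vmn1r39).

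Of the 9 genes outside large clusters, the marked ones lay close to the start of an assembled chromosome. Vmn1r238 (chromosome 18, from 3122492) had the widest peak of any Vmn1r gene, 4871 bp at a distance of 2104 bp, and 19 peaks of the whole H3K9me3 list were wider. The first H3K9me3 peak of that chromosome began at 3004331, and 10 lay between 3 and 4 Mb. Vmn1r2 (chromosome 4, from 3172083) had a peak of 1313 bp at 2805 bp, and its neighbour Vmn1r3 lay 3643 bp from one. There 17 H3K9me3 peaks lay between 3 and 4 Mb, the widest of 5129 bp. Vmn1r186 and Vmn1r187 have annotated positions of 94186 and 148877 on chromosome 7, and were the farthest of all from H3K9me3, at 2905882 and 2828209 bp. No peak of the other lists lay closer to them. Gaps in the assembly were not accounted for. Whether the stretch around these 2 positions can hold peaks was not examined, so their distances cannot be read as a lack of H3K9me3. Vmn1r1, Vmn1r90, Vmn1r184 and Vmn1r185 lay 96735, 60061, 5763 and 115105 bp from a peak.

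The RNA polymerase II peak at Vmn1r4 covered the 95 bp its span shares with Nt5c3, a cytosolic nucleotidase gene at 56882400 to 56924008. It measured 580 bp (chromosome 6, 56923718 to 56924297) and covered 384 bp, or 1.14%, of Vmn1r4, whose annotated span of 33695 bp is the longest of the family. The same peak was counted at Nt5c3. The RefSeq window of Vmn1r4 starts at 56956263, so the peak did not meet it. The next closest Vmn1r genes to RNA polymerase II were Vmn1r1 at 4678 bp, Vmn1r21 at 11392 bp and Vmn1r32 at 16351 bp, and the median over the 230 genes was 424440 bp. R-loop peaks came no closer than 9530 bp (Vmn1r28), followed by 10570 bp (Vmn1r47) and 16042 bp (Vmn1r207), and the R-loop peak near Vmn1r207 overlapped an H3K9me3 peak. RNA polymerase II peaks inside the clusters numbered 15 from Vmn1r66 to Vmn1r89, 7 from Vmn1r4 to Vmn1r31, and 2 from Vmn1r224 to Vmn1r237, both of these at the phosphatase subunit gene Ppp2r1a, and 0 in the other 5 clusters. The 8 clusters held 4 R-loop peaks and 0 DDX55 peaks. The smallest distance to DDX55 was 890013 bp, at Vmn1r90.

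Genes that act with the receptors in vomeronasal neurons were read on the same lists. RNA polymerase II peaks lay at an end of 33.5% of all protein-coding genes and H3K9me3 peaks at an end of 2.96%, shares that the counts in these short lists are to be read against. Of 9 genes of V1R signal transduction, 2 had an RNA polymerase II peak at an end: Gnai2, a G protein alpha subunit also used by lymphocytes, with peaks up to 1225 bp wide, and Itpr3, an inositol trisphosphate receptor gene, with 760 bp. Trpc2, Gng8, Plcb2, Kcnn3 and Omp had 0 peaks of any list. Inside the span, the chloride channel genes Ano2 and Ano1 held an H3K9me3 peak of 1052 bp and an R-loop peak of 371 bp. Of 12 transcription factor genes of vomeronasal neuron identity, 0 had an RNA polymerase II peak at an end, and Bcl11b and Ldb1, which also act in T cells, held them in the span. Neurog1 had an R-loop peak of 740 bp at an end. Among 20 genes of H3K9 methylation and silencing, 15 had an RNA polymerase II peak at an end, including Suv39h1 (710 bp) and Cbx5 (1646 bp), and 0 had H3K9me3. The formyl peptide receptor genes, some of which are vomeronasal receptors too, had 0 of 7 with a peak of any list.

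The count of marked genes depended on the distance allowed. Within 1000 bp of a gene end 7 Vmn1r genes had H3K9me3, where 1.51% of all protein-coding genes had, and within 10000 bp 53 had it, where 6.87% of all protein-coding genes had.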

How the data were processed

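For every CUT&Tag target the authors deposited a single merged list of peaks. Its values are start and end positions in bp, another unit than counts or signal, and it has no score. Of the samples, 4 name the H3K9me3 list, 4 the RNA polymerase II list, 4 the DDX55 list and 8 the R-loop list, each with as many DDX55 KO as WT samples. Per the submitters' processing notes, reads were on mm10 and the tools included MACS3 (3.0.0b1), Bowtie2 (2.5.0), fastp (0.12.4), ChIPseeker (1.30.3) and SAMtools (1.15.1). How peaks were thresholded, merged or pooled, and how reads with several matches were handled, is not given in the sources used here.

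Genes and start windows came from RefSeq tables of GRCm38.p6, the assembly on which mm10 rests. Any shared base counted as overlap. Python 3.11.15 with pandas 2.3.3 and numpy 2.4.6 was used, and the overlaps were tested on simulated data with planted peaks and against bedtools 2.31.1. Shares have exact 95% intervals (scipy 1.17.1). Window identity is 1 minus the edit distance over 300 bases. Peaks were placed in clusters by midpoint. Proteins were not used here, so start windows took their place in comparing copies, and the gene table gives no exons.

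Samples were grouped by target, genotype and treatment, but no group was tested, since the lists hold no value per sample. The members, gene lists and windows were chosen with earlier results of these data known. Genes were named if they had a peak of any list at an end or in the span, were the first or last of a cluster of 5 or more, or were among the 3 farthest from H3K9me3. Others were chosen after their values were seen. Alternatives changed the distance, the overlap rule, the peak list and the cluster gap.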

Additional observations from a re-analysis of the deposited data

How the results depend on the processing

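Of 44 alternative values, 26 stayed within 1.5 times the reported count, within the exact Poisson 95% interval of the cluster density, or equal to the reported cover or median distance, and the other 18 follow. The cause was not tested except where a narrower window or fewer peaks or genes lowers a count by construction. With the gene-end window at 1000 bp, H3K9me3 marked 7 genes in 3 places by 7 peaks, against 16 genes, 7 places and 18 peaks, and at 10000 bp it marked 53. At 10000 bp R-loop peaks reached 1 gene and RNA polymerase II 2. With the peak midpoint inside the window, H3K9me3 marked 10. With the wider 50% of each list, H3K9me3 lay in the span of 3 genes and RNA polymerase II at 0 ends and in 0 spans. The clusters then had 13 H3K9me3 peaks per Mb and 1.62% cover, and the median distance to H3K9me3 over all 230 Vmn1r genes was 59779 bp. With 5% of the span required, RNA polymerase II lay in 0. Cluster cover was 1.83% with a gap of 500 kb and 1.92% with 2 Mb. A further 2 settings were chosen after seeing the data. H3K9me3 marked 9 genes when those with a known identical window were left out, and 10 without the genes on chromosome 7 from 22 to 23 Mb. No paired analysis was possible because the merged lists hold no value per sample, and for the same reason no replicate could be left out.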

Other observations

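Outside the gene but within 3000 bp of it, H3K9me3 peaks lay mostly on the downstream side of Vmn1r genes: 9 member and peak pairs were downstream and 1 upstream, over the 205 genes whose strand is given. From 3001 to 10000 bp the order was the other way, with 21 pairs downstream and 34 upstream, and from 10001 to 100000 bp there were 341 and 384. Pairs share peaks, and these differences were not tested. Among the 52 pairs of Vmn1r genes with identical start windows, the spacing ran from 0.0140 to 2.55 Mb (median 1.32 Mb), and 14 pairs lay between 1.9 and 2.1 Mb apart.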
